A study of Homo sapiens with 12 samples.

Results

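The 9 genes described here, MAF, BHLHE40, CREB3L4, ZBTB10, ZBTB16, TSC22D3, CEBPD, PER1 and KLF9, encode transcriptional regulators that are known to rise with androgen or that were seen to rise in these cells. They were measured in LNCaP, an established human prostate cancer line that carries the androgen receptor, on 12 expression bead arrays in 4 groups of 3. The groups were ERRγ siRNA with R1881, ERRγ siRNA with vehicle, control siRNA with R1881 and control siRNA with vehicle. R1881 is a synthetic androgen and was used at 10 nM for 72 h, its vehicle was ethanol, and ERRγ is the estrogen-related receptor gamma, an orphan nuclear receptor encoded by ESRRG. All 4 groups were kept in medium with 2% steroid-deprived serum and were treated 48 h after transfection, with medium and treatment renewed after 48 h. The labels call the samples triplicates and do not say that they came from separate cultures, so the p-values cover the spread among triplicates that may be technical. One cell line of one tumour, held without steroids before treatment, is the limit of the model.

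Of the 9 genes, 8 were found under their own symbol among the 47323 probes of the deposited table. BHLHE40 was found only through its RefSeq accession, because the table gives it the older name BHLHB2. Together they had 16 probes, of which 13 were above background on at least 3 of the 12 arrays. Those 13 probes cover 8 of the genes, out of 17121 genes tested. The single PER1 probe was above background on no array. The members were chosen by their rise with R1881 against vehicle, known or seen in these arrays, so the R1881 values are given as a description, without a test. The name of an androgen-induced set was not borne out for KLF9, whose signal was lower with R1881, nor could it be checked for PER1.

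The androgen receptor is a ligand-activated transcription factor. On binding androgen it moves to the nucleus and binds DNA at pairs of the hexamer TGTTCT, a sequence it shares with the glucocorticoid receptor. Among its early targets are genes for further transcription factors, which pass the signal on to genes that the receptor itself does not bind. MAF, CREB3L4 and CEBPD are basic leucine zipper factors. BHLHE40 and PER1 belong to the repressing arm of the circadian clock. ZBTB10, ZBTB16 and KLF9 bind DNA through zinc fingers, and TSC22D3 is a leucine zipper protein best known as a glucocorticoid-induced inhibitor of inflammatory transcription factors.

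RefSeq promoter windows of build GRCh38.p14 were searched for 6 of the members, with 9 windows in all because TSC22D3 had 4. No window of ZBTB10, ZBTB16 or CEBPD was searched, so nothing is said of theirs. The 250 bases before each start were searched on both strands for the E-box CACGTG, which clock factors bind, the cyclic AMP response element tgacgtca, the full steroid response element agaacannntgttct, its single hexamer TGTTCT and the CCAAT box. The windows of the 2 genes with the largest change and of the gene with the opposite change follow, 5′ to 3′ on the gene's strand, with every match other than CCAAT in capitals. They lie at chr16:79600738-79600987 (MAF, minus strand), chr3:4979187-4979436 (BHLHE40, plus strand) and chr9:70414658-70414907 (KLF9, minus strand), each immediately upstream of the annotated start.
MAF: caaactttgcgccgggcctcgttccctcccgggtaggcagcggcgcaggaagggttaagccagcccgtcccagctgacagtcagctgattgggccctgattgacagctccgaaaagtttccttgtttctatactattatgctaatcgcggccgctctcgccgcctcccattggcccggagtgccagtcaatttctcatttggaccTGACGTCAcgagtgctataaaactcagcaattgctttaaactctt
BHLHE40: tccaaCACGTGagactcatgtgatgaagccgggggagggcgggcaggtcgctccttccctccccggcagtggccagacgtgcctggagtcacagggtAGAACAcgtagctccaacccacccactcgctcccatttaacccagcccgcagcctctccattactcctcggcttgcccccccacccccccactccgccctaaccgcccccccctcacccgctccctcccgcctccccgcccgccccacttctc
KLF9: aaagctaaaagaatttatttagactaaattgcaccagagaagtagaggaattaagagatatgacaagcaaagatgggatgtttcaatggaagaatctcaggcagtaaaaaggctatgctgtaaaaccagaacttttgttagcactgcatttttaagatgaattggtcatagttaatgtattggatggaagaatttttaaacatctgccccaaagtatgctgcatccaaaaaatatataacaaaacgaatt

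The MAF window held a cyclic AMP response element 45 bases before the start, an element found in 1.65% of the 35116 windows searched. The BHLHE40 window held an E-box 245 bases and a steroid hexamer, read on the other strand, 153 bases before the start. E-boxes were in 6.34% of the windows searched and the hexamer in 12.4%. The windows searched did not cover every gene, and these shares hold for them only. The PER1 window also held an E-box, 173 bases before its start. The windows of CREB3L4, TSC22D3 and KLF9 held none of these elements. The full steroid element was in no searched window of a member and in 0.00285% of the windows searched. The CCAAT box, present in 32% of the windows searched, was found in those of MAF, PER1 and KLF9. A match is a description of the letters in this short stretch, and its absence says nothing of elements farther away.

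Before the members were read, the arrays were checked. Each array had 18698 to 20536 probes above background, and the arrays of a group correlated with each other at 0.9894 to 0.9946. The luminal prostate markers were above background on all 12 arrays for 8 of 9 genes, with KLK2 on 6. KRT5 of basal cells, COL1A2 and DCN of stroma, PTPRC of immune cells and SYP and NCAM1 of neuroendocrine cells were above background on none. Of the other markers of these cell types, LAMA3, COL1A1, ACTA2 and ENO2 were above background on all 12. LYZ and CD79A of immune cells were above background on 7 arrays each, CD14 of immune cells and COL3A1 of stroma on 4 each, and KRT14, TP63, ITGA6, LUM, CD3E and CHGA on 1 or 2. Their part in the results was not tested. The 3 probes of ESRRG, the gene targeted by the siRNA, were above background on no array, with raw signals between 86.04 and 99.9, so these arrays do not check the knockdown. Because RNA was taken from whole cultures, more RNA per cell cannot be told apart from more cells that hold it.

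With R1881, 7 of the 8 measured members were higher and 1 was lower, with either siRNA. In all, 17.7% of genes were called higher and 22.3% lower by R1881 with the control siRNA, and 16.6% higher and 20.4% lower with the ERRγ siRNA, at an adjusted p under 0.05 in limma. The median log2 change of the 8 members was 1.15 with the ERRγ siRNA and 1.14 with the control siRNA. The median over all genes was -0.02 and -0.03. At least a 2-fold higher signal was seen for 4 of the members with each siRNA, as for 470 of the 17121 genes with the ERRγ siRNA and 512 with the control siRNA. On every kept probe of the 7 genes, all R1881 arrays lay above all vehicle arrays of the same siRNA, as 22.5% of genes did with the ERRγ siRNA and 21.3% with the control siRNA. KLF9 alone lay below on all R1881 arrays, as 26.8% of genes did with the ERRγ siRNA and 25.8% with the control siRNA. The members were chosen for this direction, and nothing is read from these counts.

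**Figure D1:**
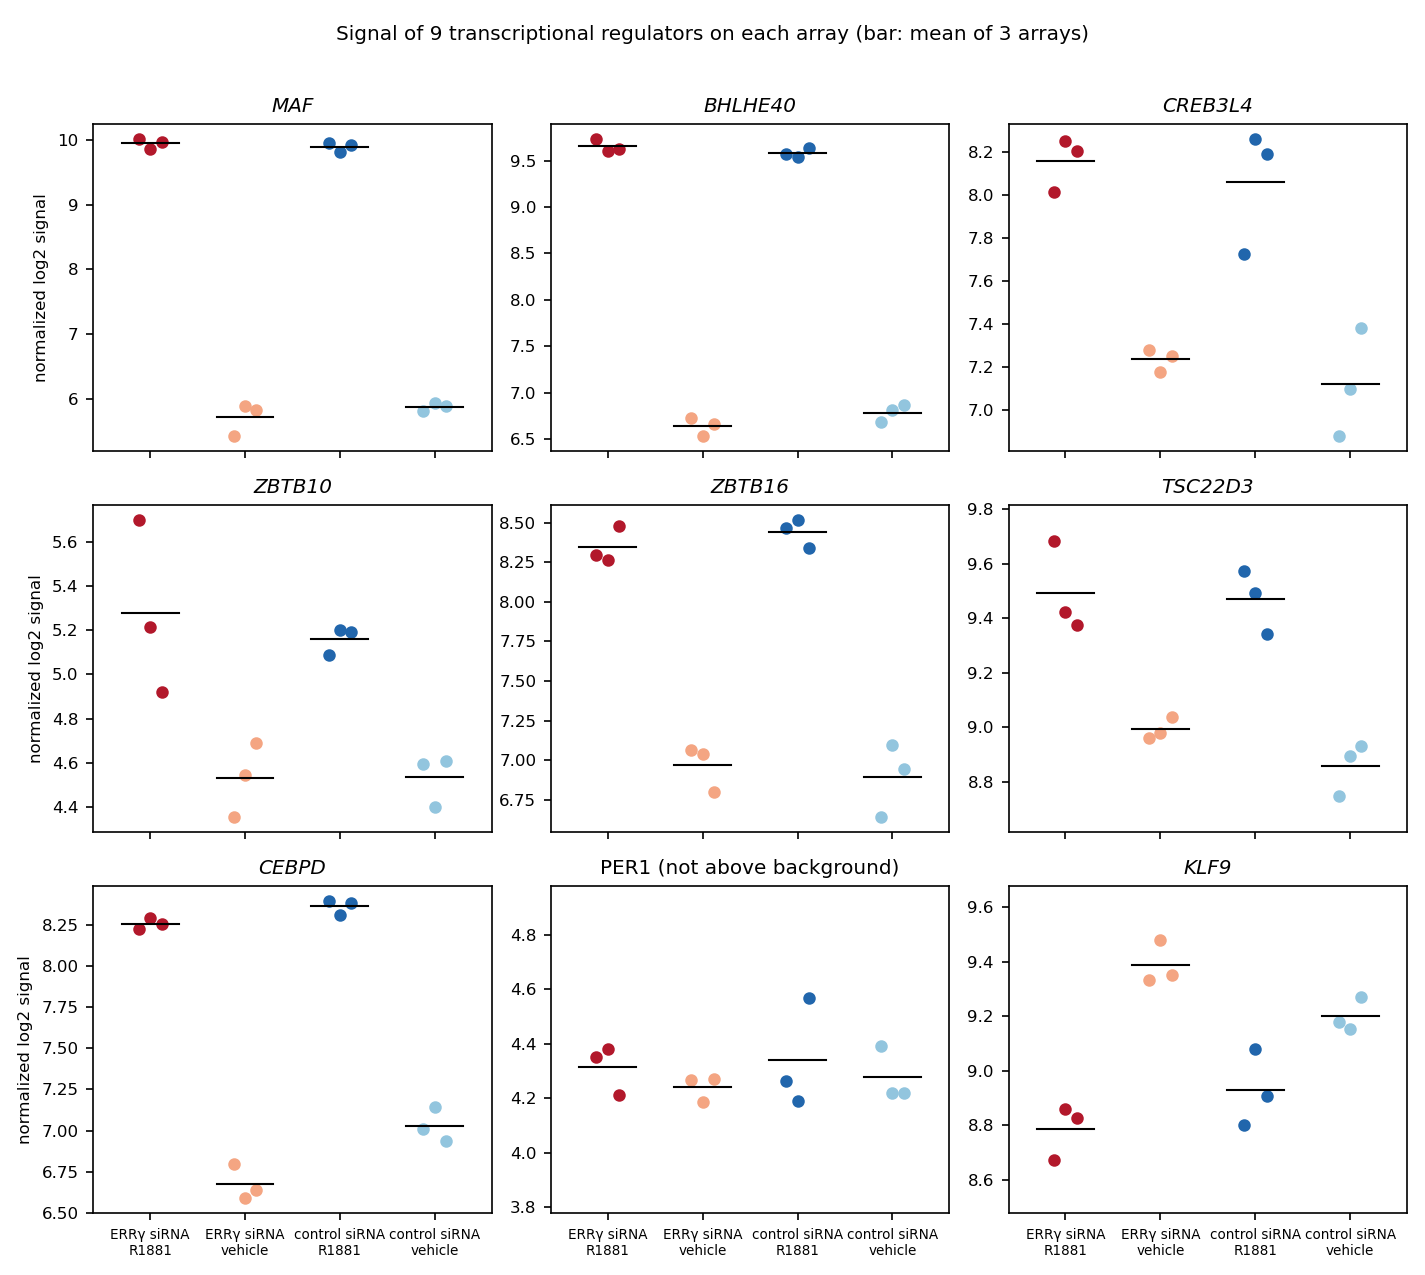
Normalized log2 signal of each of the 9 regulators (vertical axis, a separate scale in each panel) on each of the 12 arrays, in the groups ERRγ siRNA with R1881, ERRγ siRNA with vehicle, control siRNA with R1881 and control siRNA with vehicle, with points for arrays and bars for the mean of 3. For MAF the R1881 arrays lie near 9.9 and the vehicle arrays below 6, KLF9 is lower with R1881, and PER1 was above background on no array.

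MAF, a large MAF factor that directs differentiation in lens, lymphocytes and other tissues, changed most among the members. Its raw signals were 1172, 1129 and 1181 with ERRγ siRNA and R1881, against 121, 135.6 and 134.5 with ERRγ siRNA and vehicle. Under the control siRNA they were 1073, 1027 and 1089 in R1881, against 142.8, 131.9 and 130.2 in vehicle. The R1881 arrays and the vehicle arrays were far apart, while the arrays of both siRNAs lay close together within each treatment. After normalization the log2 change was 4.24 ± 0.12 (SE) with the ERRγ siRNA, 18.9-fold, and 4.02 ± 0.12 with the control siRNA, 16.2-fold (n = 3 arrays a group). A second MAF probe, designed on another transcript of the gene, was above background on all 6 R1881 arrays and on no vehicle array. It read 124.4, 124.1 and 122.3 with ERRγ siRNA and R1881, against 89.52, 91.14 and 89.38 with vehicle. Under the control siRNA it read 101.2, 116.3 and 129.9 in R1881, against 87.36, 86.31 and 90.48 in vehicle. Taken against the lowest signal above background on each vehicle array, this probe was at least 1.82-fold higher with R1881 under the ERRγ siRNA. Under the control siRNA it was at least 1.54-fold higher.

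CREB3L4 is a membrane-bound factor of the endoplasmic reticulum whose gene is abundant in prostate epithelium and was described as androgen-induced. It read 343.5, 411.9 and 389.9 with ERRγ siRNA and R1881, against 231.5, 214.7 and 228.8 with ERRγ siRNA and vehicle. For the control siRNA the signals were 279.7, 400.4 and 378.4 in R1881, against 216.1, 200.6 and 224.5 in vehicle. The first R1881 array of the control siRNA was the lowest of the R1881 arrays and still above all vehicle arrays. The log2 change was 0.92 ± 0.15 (SE) with the ERRγ siRNA and 0.94 ± 0.15 with the control siRNA, 1.89-fold and 1.92-fold.

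CEBPD, a C/EBP factor that is induced early in acute-phase and differentiation responses, read 386.9, 420.8 and 402.1 with ERRγ siRNA and R1881, against 189.5, 169.4 and 177 with ERRγ siRNA and vehicle. Arrays of the control siRNA read 401.7, 410.9 and 421 in R1881, against 229.2, 204.6 and 185.4 in vehicle. The R1881 arrays of both siRNAs overlapped in raw signal, and those in vehicle differed more between the siRNAs. The log2 change was 1.58 ± 0.09 (SE) with the ERRγ siRNA, 3-fold, and 1.33 ± 0.09 with the control siRNA, 2.52-fold.

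BHLHE40 is a helix-loop-helix repressor that binds E-boxes and opposes the clock activators CLOCK and BMAL1. Its signals were 981.1, 949.4 and 935.9 with ERRγ siRNA and R1881, against 184, 166.1 and 178.9 with ERRγ siRNA and vehicle. Under the control siRNA they were 838.7, 859.6 and 910 in R1881, against 198.1, 178.9 and 179.6 in vehicle. No R1881 array came near a vehicle array. The log2 change, 3.01 ± 0.09 (SE) with the ERRγ siRNA and 2.80 ± 0.09 with the control siRNA, was the second in size among the members, 8.06-fold and 6.95-fold. PER1, the partner of the cryptochromes in the repressing complex of the clock, had raw signals of 86.42 to 103.1 over the 12 arrays, and its lowest detection p-value was 0.0636. No level or change is given for it.

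ZBTB16, a zinc finger repressor also known as PLZF and a target of several steroid receptors, was read by 3 kept probes. The brightest read 401.9, 414.1 and 454.6 with ERRγ siRNA and R1881, against 211.4, 203.2 and 188.7 with ERRγ siRNA and vehicle. Arrays of the control siRNA read 418, 463.5 and 411.4 in R1881, against 195.4, 200.7 and 186.1 in vehicle. The R1881 signals were about double the vehicle signals before background correction. The log2 change was 1.38 ± 0.12 (SE) with the ERRγ siRNA and 1.55 ± 0.12 with the control siRNA. The other probes gave 1.51 and 0.80 with the ERRγ siRNA, and 1.60 and 1.17 with the control siRNA, all higher with R1881.

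ZBTB10, a zinc finger protein known as a repressor of SP factors in cancer cells, was dim. It read 130, 117.7 and 110.2 with ERRγ siRNA and R1881, against 95.04, 100.3 and 103.2 with ERRγ siRNA and vehicle. For the control siRNA the signals were 109.4, 114 and 115.9 in R1881, against 101.9, 92.92 and 98.4 in vehicle. The probe was above background on all 6 R1881 arrays, on 1 vehicle array of the ERRγ siRNA and on 2 of the control siRNA. The log2 change was 0.75 ± 0.16 (SE) with the ERRγ siRNA and 0.63 ± 0.16 with the control siRNA, on a scale where 3 of the 6 vehicle arrays were at background.

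TSC22D3 was read by 3 kept probes, and 2 further probes were above background on no array. Of the latter, ILMN_1781356 was designed on the same transcript as the brightest kept probe. The brightest read 947, 844.9 and 795 with ERRγ siRNA and R1881, against 547.3, 535.9 and 578.8 with ERRγ siRNA and vehicle. Under the control siRNA it read 840.5, 840.1 and 753.7 in R1881, against 574.1, 501.9 and 498.2 in vehicle. All R1881 arrays were above all vehicle arrays. The log2 change of this probe was 0.50 ± 0.10 (SE) with the ERRγ siRNA and 0.61 ± 0.10 with the control siRNA. Both other probes were designed on one transcript, different from that of the brightest probe. They gave larger changes, 0.67 and 0.69 with the ERRγ siRNA and 0.97 and 1.30 with the control siRNA. For the dim probe ILMN_2276952, above background on 2 of 3 control siRNA vehicle arrays, this depended on how background was treated. In the authors' deposited values it changed by 0.16 with the ERRγ siRNA and 0.25 with the control siRNA. The brightest probe changed there by 0.40 and 0.49. With no background correction the dim probe gave 0.27 and 0.46, against 0.44 and 0.54.

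KLF9, a Krüppel-like factor known as a glucocorticoid and thyroid hormone target, went the other way. It read 498.1, 592.5 and 562.3 with ERRγ siRNA and R1881, against 675.1, 713.7 and 691.4 with ERRγ siRNA and vehicle. Arrays of the control siRNA read 512.1, 648.7 and 573.2 in R1881, against 737.8, 585 and 602.8 in vehicle. The raw signals of the control siRNA overlapped, and only after normalization between arrays did all R1881 arrays lie below all vehicle arrays with both siRNAs. The log2 change was -0.60 ± 0.10 (SE) with the ERRγ siRNA and -0.27 ± 0.10 with the control siRNA. Its size depended on the processing. With arrays scaled by their medians it was -0.41 with the ERRγ siRNA and -0.19 with the control siRNA. In the authors' deposited values it was -0.48 and -0.21.

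The order of the R1881 changes began with MAF and BHLHE40 under both siRNAs. CEBPD and ZBTB16 followed and changed places between the siRNAs. CREB3L4, ZBTB10 and TSC22D3 came next, and KLF9 came last. These sizes depended on how background was treated. In the authors' deposited log2 table, the MAF difference was 2.38 with the ERRγ siRNA and 2.30 with the control siRNA, that of BHLHE40 was 1.85 and 1.74, and that of ZBTB10 was 0.10 and 0.08. The same table gave 0.75 and 0.69 for CEBPD, 0.69 and 0.80 for ZBTB16 and 0.47 with either siRNA for CREB3L4. For TSC22D3 it gave 0.40 with the ERRγ siRNA and 0.49 with the control siRNA, above ZBTB10 with both siRNAs and above CREB3L4 with the control siRNA, so the order was not kept there. The direction of each of the 8 genes was the same in that table. The mean of both MAF probes changed by 2.74 with the ERRγ siRNA and 2.50 with the control siRNA, below BHLHE40 at 3.01 and 2.80. With its probes averaged, TSC22D3 changed by 0.62 with the ERRγ siRNA and 0.96 with the control siRNA. That was above CREB3L4 (0.94) and ZBTB10 (0.63) with the control siRNA and below both with the ERRγ siRNA. TSC22D3 was also above ZBTB10 with both siRNAs under no background correction and under an offset of 50, and with the control siRNA under median scaling.

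**Figure D2:**
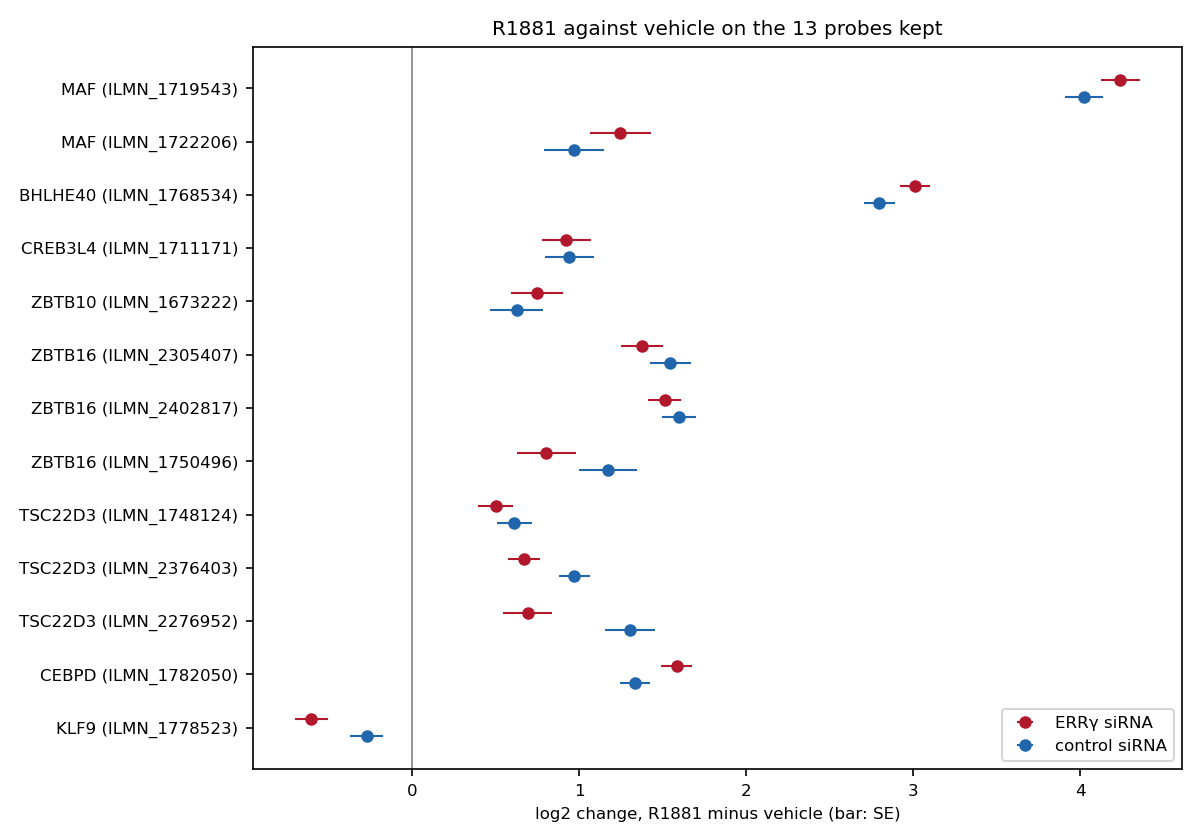
Log2 change of R1881 minus vehicle (horizontal axis) on the 13 kept probes of 8 regulators, for ERRγ siRNA and control siRNA, with points for the change and bars for its standard error. The MAF probe ILMN_1719543 is farthest to the right at 4.24 and 4.02, and KLF9 is the only probe left of 0.

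The rule that chose the members named a rise with androgen and not the siRNA comparisons, so these were tested. In vehicle, none of the 8 members was called between the ERRγ siRNA and the control siRNA, where 0.263% of all genes were called (45 genes, 3 higher and 42 lower). In the authors' deposited values 179 genes were called, 67 higher and 112 lower, and again no member. At an unadjusted p under 0.05 stood 1 of 8 members and 2657 of all genes (15.5%). The median size of the members' log2 differences was 0.14, against 0.12 over all genes.

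The member with that p was CEBPD, whose vehicle signals are given above. After normalization all 3 ERRγ siRNA arrays lay below all 3 control siRNA arrays, at 6.67 ± 0.11 against 7.03 ± 0.11 (normalized log2 signal, mean ± SD, n = 3 each). The raw signals overlapped, with 189.5 on an ERRγ siRNA array and 185.4 on a control siRNA array. The log2 difference was -0.36, with a 95% interval of -0.55 to -0.17, and did not pass the adjustment over all genes (limma, adjusted p = 0.104). With no background correction the difference was -0.21 and passed (adjusted p = 0.0371), as it did with an offset of 50, at -0.28 (adjusted p = 0.0355). In R1881 the CEBPD arrays of the ERRγ siRNA again lay below those of the control siRNA, the only member so separated there, by a log2 difference of -0.11 (interval -0.30 to 0.09, adjusted p = 0.902). Separation in either direction was seen for 22.3% of genes in vehicle and 10.8% in R1881.

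For TSC22D3, after normalization all 3 ERRγ siRNA arrays lay above all 3 control siRNA arrays in vehicle on each of its 3 kept probes. The same held on 11.5% of all probes. On the brightest probe the raw vehicle signals, given above, overlapped between the siRNAs. Its log2 difference was 0.14 (95% interval -0.08 to 0.36, adjusted p = 0.56 in limma). The probe ILMN_2376403 read 325.8, 328.7 and 370.5 with the ERRγ siRNA, against 320.8, 283.5 and 274.8 with the control siRNA, without overlap. Its log2 difference was 0.31 (interval 0.11 to 0.51, adjusted p = 0.167 over all probes). The dim probe ILMN_2276952 read 120.6, 107.7 and 125.5 with the ERRγ siRNA, against 105.4, 101.8 and 96.78 with the control siRNA. Its log2 difference was 0.60 (interval 0.29 to 0.92, adjusted p = 0.112). Neither passed the threshold, as 0.228% of all probes did, but ILMN_2376403 did so with no background correction (0.24, adjusted p = 0.0478). The probes share a gene and the same 12 RNA samples and are not independent. In R1881 the 3 probes differed between the siRNAs by 0.02, 0.01 and -0.01 on the log2 scale.

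KLF9 was higher on all ERRγ siRNA arrays than on all control siRNA arrays in vehicle after normalization, by a log2 difference of 0.19 (95% interval -0.02 to 0.39, adjusted p = 0.366). Such separation upward was seen for 11.5% of genes. The remaining members overlapped between the siRNAs in vehicle. MAF differed by -0.17 (interval -0.41 to 0.08), BHLHE40 by -0.14 (-0.33 to 0.05), CREB3L4 by 0.12 (-0.20 to 0.43), ZBTB16 by 0.07 (-0.19 to 0.34) and ZBTB10 by -0.01 (-0.34 to 0.33), all on the log2 scale. These intervals leave room for differences of a size not detectable with 3 arrays a group.

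In R1881, limma called none of the 17121 genes (0%) between the siRNAs, the 8 members included. At an unadjusted p under 0.05 stood 1049 genes (6.13%) and no member. The members' log2 differences lay between -0.14 for KLF9 and 0.12 for ZBTB10, with a median size of 0.10 against 0.09 over all genes. MAF, the most responsive member, differed by 0.05 (95% interval -0.20 to 0.30) and BHLHE40 by 0.07 (-0.12 to 0.26).

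Whether the response to R1881 itself differed between the siRNAs was tested as the difference of the 2 responses. That difference is made of the R1881 changes for which the members were chosen. Its p-values for members may not be free of that choice. None of the 17121 genes (0%) was called in limma, against 1890 (11%) at an unadjusted p under 0.05. Of the members, 1 stood at an unadjusted p under 0.05. That was KLF9, whose response was lower by 0.33 on the log2 scale with the ERRγ siRNA (difference -0.33, 95% interval -0.62 to -0.04, adjusted p = 0.396). The difference for CEBPD was 0.25 (interval -0.02 to 0.52, adjusted p = 0.487), and that for MAF was 0.22 (-0.13 to 0.57, adjusted p = 0.653). For BHLHE40 it was 0.21 (-0.06 to 0.48, adjusted p = 0.551). For TSC22D3 the 3 probes gave -0.11, -0.30 and -0.61, with intervals of -0.42 to 0.20, -0.59 to -0.02 and -1.06 to -0.17, and none passed the adjustment (adjusted p = 0.807 for the first over genes, 0.452 and 0.339 for the others over probes).

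**Figure D3:**
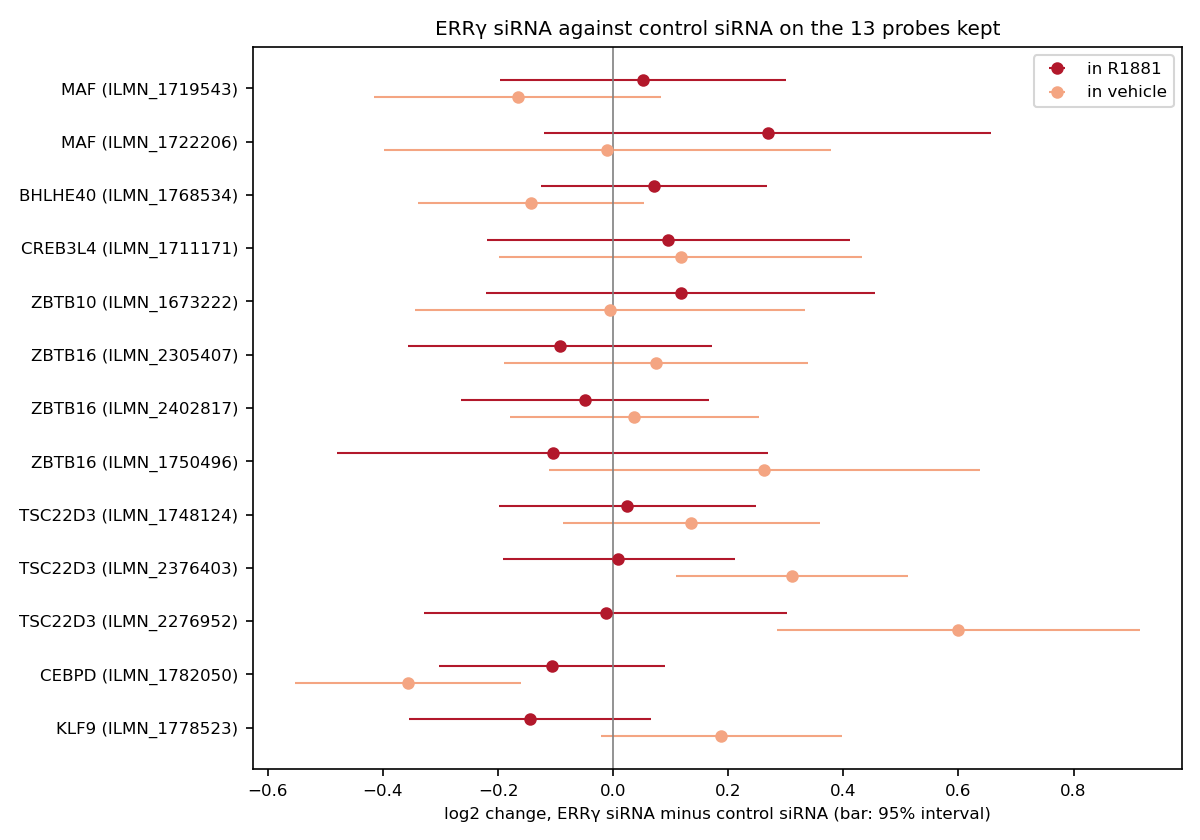
Log2 change of ERRγ siRNA minus control siRNA (horizontal axis) on the 13 kept probes, in R1881 and in vehicle, with points for the change and bars for its 95% interval. The intervals that leave out 0 belong to CEBPD and to 2 TSC22D3 probes, all in vehicle, and none of the 13 passed the adjustment.

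The relatives and partners of the members were then read with R1881, leaving the members out. The lists hold 143 genes, of which 114 were tested. With the ERRγ siRNA 22 were called higher and 38 lower, and with the control siRNA 23 were called higher and 37 lower. That is 19.3% higher and 33.3% lower with the ERRγ siRNA, where all genes gave 16.6% and 20.4%, and 20.2% higher and 32.5% lower with the control siRNA, where all genes gave 17.7% and 22.3%. Counts near these shares are not a result about a list. No gene of any list was called between the siRNAs in vehicle or in R1881, or for the difference of the responses.

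The other clock genes were mostly called lower or not called with R1881. Of 18 tested, 1 was called higher and 10 lower with the ERRγ siRNA (median log2 change -0.42), and 0 higher and 8 lower with the control siRNA (median -0.34). With the ERRγ siRNA the 10 lower calls became 6 without ERRγ siRNA vehicle replicate 3, and the 1 higher call was lost without any 1 of the 6 arrays of that siRNA other than R1881 replicate 3. CSNK1E, a kinase that phosphorylates the PER proteins, fell, with log2 changes of -0.85 ± 0.09 (SE) with the ERRγ siRNA and -0.71 ± 0.09 with the control siRNA (adjusted p = 2.57e-06 and 1.5e-05). CIART, a repressor of CLOCK and BMAL1, fell too, at -0.47 ± 0.16 with the ERRγ siRNA and -0.73 ± 0.16 with the control siRNA (adjusted p = 0.03 and 0.00195), and its call with the ERRγ siRNA was lost in the authors' deposited values (adjusted p = 0.0772). Others lower with both siRNAs, named after their values were seen, included PER2, PER3, CRY2, DBP and TEF. PER2, a close relative of PER1, fell, at -0.73 with the ERRγ siRNA and -0.48 with the control siRNA (adjusted p = 2.79e-05 and 0.00103). The activators CLOCK and BMAL1, likewise named after their values were seen, were not called with either siRNA, at -0.02 and 0.08 with the control siRNA.

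The ZBTB family was the largest list. Of 36 tested, 2 were called higher and 13 lower with the ERRγ siRNA, and 1 higher and 14 lower with the control siRNA. The medians were -0.17 and -0.25. When arrays were scaled by their medians, the calls with the ERRγ siRNA became 1 higher and 8 lower. The 1 higher call with the control siRNA became 3 without R1881 replicate 1 and 2 without R1881 replicate 2 or vehicle replicate 1. The 2 higher calls with the ERRγ siRNA became 1 without R1881 replicate 2 or 3 or vehicle replicate 1 or 2, with no filter on dim probes, with averaged probes and with the replicate block. With no filter the control siRNA had 2. ZBTB43 fell most, with log2 changes of -2.34 ± 0.10 (SE) under the ERRγ siRNA and -2.56 ± 0.10 under the control siRNA (adjusted p = 4.17e-10 and 1.65e-10). ZBTB20, a repressor with roles in liver and brain, fell, at -1.03 ± 0.10 with the ERRγ siRNA and -1.34 ± 0.10 with the control siRNA (adjusted p = 1.81e-06 and 1.22e-07). It was above background on only 1 of 3 control siRNA R1881 arrays, which limits the size of the fall with that siRNA. ZBTB24, a factor needed for methylation of centromeric DNA, was higher by 0.88 ± 0.12 with the ERRγ siRNA and 0.87 ± 0.12 with the control siRNA (adjusted p = 4.55e-05 and 4.75e-05).

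Among the KLF relatives of KLF9, 3 of 9 were called higher and 2 lower with each siRNA. KLF6, an immediate early gene, was higher by 1.60 ± 0.10 (SE) with the ERRγ siRNA and 1.62 ± 0.10 with the control siRNA on the log2 scale (adjusted p = 1.45e-08 and 1.28e-08). KLF4, one of the pluripotency factors, was higher by 1.37 ± 0.10 with the ERRγ siRNA and 1.39 ± 0.10 with the control siRNA (adjusted p = 1.37e-07 and 1.18e-07), though it was above background on only 1 of 3 control siRNA vehicle arrays. KLF15, named after its values were seen, was the third. KLF11 and KLF13, both repressors of the same family branch as KLF9, fell, at -0.66 and -0.65 with the ERRγ siRNA and -0.76 and -0.70 with the control siRNA.

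Of 5 MAF and BACH genes tested, 1 was called higher with the ERRγ siRNA and 2 with the control siRNA, and none lower. The 2 became 1 without control siRNA R1881 replicate 1 or vehicle replicate 1 or 2, and also with the authors' deposited values, no filter on dim probes or median scaling. With the probes of a gene averaged the counts were 2 with the ERRγ siRNA and 1 with the control siRNA. MAFF, a small MAF partner, was higher by 0.90 ± 0.18 (SE) with the ERRγ siRNA (adjusted p = 0.000994) and by 0.50 ± 0.18 with the control siRNA (adjusted p = 0.036, and 0.0705 in the authors' deposited values). Of 5 C/EBP genes, none was called higher, and 3 were called lower with the ERRγ siRNA and 2 with the control siRNA. With median scaling the 3 became 1. DDIT3, also known as CHOP and induced by stress of the endoplasmic reticulum, fell, at -0.85 ± 0.09 with the ERRγ siRNA and -0.89 ± 0.09 with the control siRNA (adjusted p = 4.21e-06 and 2.64e-06). CEBPG fell, at -0.30 with the ERRγ siRNA and -0.47 with the control siRNA (adjusted p = 0.0191 and 0.000956), and with median scaling its call with the ERRγ siRNA was lost (adjusted p = 0.289).

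The CREB3 and ATF6 group holds membrane-bound factors, the site proteases MBTPS1 and MBTPS2, which cut such factors from membranes, and XBP1. Of its 9 tested genes, 2 were called higher and 2 lower with each siRNA. The 2 lower calls with the ERRγ siRNA became 1 without any 1 of its 6 arrays. With the control siRNA the 2 higher calls became 1 without R1881 replicate 2 or vehicle replicate 3, and the 2 lower calls became 1 without either of these or vehicle replicate 1. With median scaling 1 was lower with the ERRγ siRNA and 0 with the control siRNA, and averaging the probes of a gene left 1 with the control siRNA. CREB3L2 was higher by 0.39 with the ERRγ siRNA and 0.45 with the control siRNA on the log2 scale (adjusted p = 0.00443 and 0.00133). MBTPS2 was higher by 0.75 with the ERRγ siRNA and 0.54 with the control siRNA (adjusted p = 0.00273 and 0.0184). ATF6 fell, at -0.26 with the ERRγ siRNA and -0.32 with the control siRNA (adjusted p = 0.0301 and 0.00845), calls that were lost with median scaling (adjusted p = 0.39 and 0.0605). MBTPS1 changed by -0.08 with the ERRγ siRNA (adjusted p = 0.644) and fell by 0.38 with the control siRNA (adjusted p = 0.0227), a call lost when probes of a gene were averaged (adjusted p = 0.117). In the TSC22 family 1 of 3 relatives was called, TSC22D1, which was higher by 0.77 ± 0.10 (SE) with the ERRγ siRNA and 0.98 ± 0.10 with the control siRNA (adjusted p = 3.15e-05 and 3.2e-06).

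TSC22D3, PER1, KLF9, CEBPD and ZBTB16 are also known targets of the glucocorticoid receptor. Of 19 other tested early targets shared by the glucocorticoid and androgen receptors, 9 were called higher and 3 lower with the ERRγ siRNA, and 11 higher and 4 lower with the control siRNA. With median scaling these became 9 higher and 1 lower, and 11 higher and 2 lower. The 4 lower calls with the control siRNA became 1 without its R1881 replicate 2, and 2 without its R1881 replicate 3 or vehicle replicate 3. FKBP5, a co-chaperone of steroid receptors, was higher by 3.82 ± 0.09 (SE) with the ERRγ siRNA and 4.08 ± 0.09 with the control siRNA on the log2 scale (adjusted p = 2.04e-12 and 1.45e-12). ERRFI1, an inhibitor of EGFR signalling, was higher by 2.68 ± 0.10 with the ERRγ siRNA and 2.57 ± 0.10 with the control siRNA (adjusted p = 7.68e-11 and 1.08e-10). HSD11B2, which inactivates cortisol, fell, at -0.80 with the ERRγ siRNA and -0.57 with the control siRNA (adjusted p = 1.07e-05 and 0.000205). MT2A, a metallothionein, changed by 0.38 with the ERRγ siRNA (adjusted p = 0.275) and fell by 0.77 with the control siRNA (adjusted p = 0.0259, and 0.0609 with dim probes kept).

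Among 10 factors of the prostate lineage tested, 3 were called higher and 5 lower with each siRNA. SPDEF, an epithelial ETS factor, was higher by 1.47 ± 0.09 (SE) with the ERRγ siRNA and 1.53 ± 0.09 with the control siRNA on the log2 scale (adjusted p = 2.39e-08 and 1.56e-08). GATA2, a pioneer factor of the androgen receptor, fell, at -1.48 ± 0.10 with the ERRγ siRNA and -1.62 ± 0.10 with the control siRNA (adjusted p = 3.74e-08 and 1.41e-08). HOXB13, another partner of the receptor, fell, at -0.67 ± 0.11 with the ERRγ siRNA and -0.71 ± 0.11 with the control siRNA (adjusted p = 0.000275 and 0.000154).

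**Figure D4:**
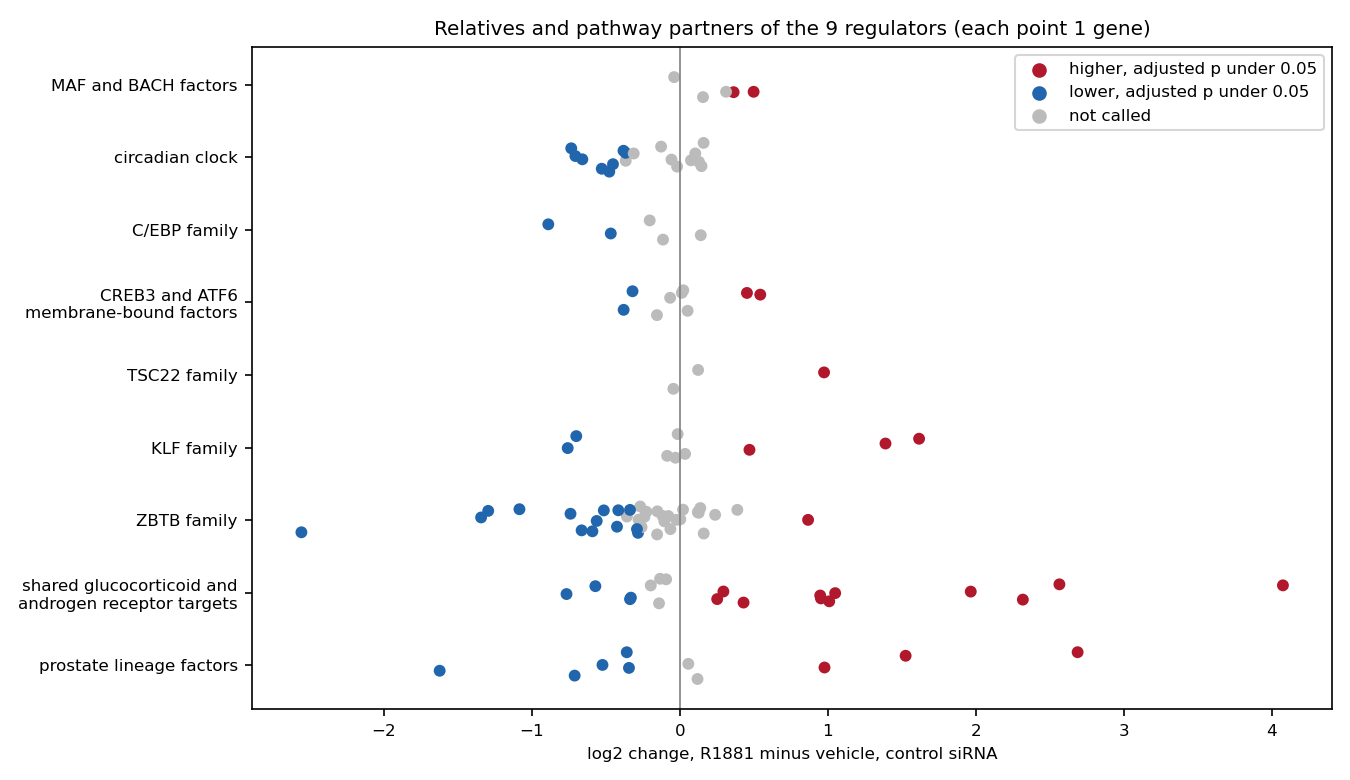
Log2 change of R1881 minus vehicle with the control siRNA (horizontal axis) for each tested relative or partner of the 9 regulators, 1 point a gene, by list, coloured by whether it was called higher, called lower or not called at an adjusted p under 0.05. Called clock genes lie only left of 0, called ZBTB genes lie left of 0 but for 1, and FKBP5 is farthest to the right at 4.08.

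The genes whose profile over the 12 arrays lay nearest to each member were found by Euclidean distance between log2 values centred on each gene's own mean. All such pairs share the 12 arrays and the 4 treatments, and the distances are a description. Nearest to MAF were SLC2A3, a glucose transporter, at a distance of 0.47, ORM1 at 0.51 and NDRG1 at 0.54. SLC2A3 changed by 4.14 with the ERRγ siRNA and 4.19 with the control siRNA on the log2 scale, against 4.24 and 4.02 for MAF. Nearest to BHLHE40 were HES6, a helix-loop-helix factor, at 0.40, KRT6C and ANKRD37. For ZBTB16 they were IMPDH1 at 0.36, HLA-DMA and KRT18. For CEBPD they were TIPARP at 0.39, PHLDA2 and GSR. For CREB3L4 they were MCM4, a subunit of the replicative helicase, at 0.38, CDK2, a kinase of the cell cycle, and CD9. For ZBTB10 they were ST6GAL1 at 0.39, TMEM177 and CLEC7A, and for TSC22D3 they were CERS6 at 0.28, ALG8 and METTL3. Nearest to KLF9 were TOMM20 of the mitochondrial import pore at 0.17, RB1CC1 and EIF3H. TOMM20 changed by -0.62 with the ERRγ siRNA and -0.29 with the control siRNA, close to KLF9 at -0.60 and -0.27.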

How the data were processed

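The authors deposited, per the file headers, a raw signal intensity on a linear scale for 47323 probes on each of 12 bead arrays, and beside it a detection p-value, which tests whether the probe exceeds the array's own negative controls. Another deposited table of the authors holds normalized values on what their range shows to be a log2 scale. Its normalization is not given in the sources used here.

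Background was removed from the raw signals by the function nec of limma 3.58.1 (R 4.3.3, data.table version 1.17.8), which used the detection p-values (offset 16), and signals were quantile-normalized and put on the log2 scale, without the 92 spike-in probes. Probes detected at p under 0.05 on at least 3 arrays were kept (21959). Each gene was read by its kept probe with the highest mean, 17121 genes in all. Probes were named by RefSeq accession, symbol or, failing both, the table's name. One limma fit with lmFit and eBayes over the 4 groups gave two-sided moderated tests, adjusted by Benjamini-Hochberg over all genes and called at 0.05. TSC22D3, MAF and ZBTB16 probes were also read from a fit over all kept probes. A dim probe's bound used the lowest signal above background on each array. The scripts were tested on simulated data. Precision is limited by having 3 arrays a group.

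The members, lists and tests were chosen with earlier results of these data known. The genes named are all members, the 2 highest and 2 lowest called genes of each list with the control siRNA, the 3 genes nearest to each member, ESRRG and the cell type markers. KLF15, CLOCK, BMAL1, PER2, PER3, CRY2, DBP and TEF were named after their values were seen. Some genes that this rule or the lists name are not reported here. Replicate numbers did not pair the arrays (see the closing section). Alternatives were the authors' table, no background correction, an offset of 50, no filter, the mean of a gene's probes, a fit of every probe, median scaling, a replicate block and leaving out each array.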

Additional observations from a re-analysis of the deposited data

How the results depend on the processing

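The count of genes called between the siRNAs in vehicle, 45, depended on the setting. It was 179 with the authors' table, 482 with no background correction, 441 with an offset of 50, 134 with median scaling, 26 with no filter and 6 with the replicate block. Leaving out 1 array gave 1 to 192. It fell to 2, 4 or 1 without control siRNA vehicle replicate 1, 2 or 3 and to 5 or 3 without ERRγ siRNA vehicle replicate 1 or 3. It was 83 without ERRγ siRNA vehicle replicate 2, and 192, 123 or 28 without control siRNA R1881 replicate 1, 2 or 3. The 0 of the 8 members called there became 1, CEBPD, with no background correction and with an offset of 50. Over all settings the adjusted p of CEBPD ran from 0.0355 to 0.28. The TSC22D3 probe ILMN_2276952 passed without ERRγ siRNA vehicle replicate 2 (0.79, adjusted p = 0.0319). The count for the difference of the responses, 0, became 1 with the authors' table, 14 with no background correction, 50 with an offset of 50, 2 with median scaling and 0 to 175 with 1 array left out, the highest without control siRNA R1881 replicate 1, and never held a member. The count between the siRNAs in R1881 stayed at 0 under every setting listed in the methods.

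Replicate numbers share only a name: same-numbered arrays of different groups correlated at -0.258 to 0.127 after removing group means, and 4 of 12 arrays correlated best with their own number. The replicate block changed no call of a member.

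Differences near 0 changed sign. In vehicle ZBTB10 was 0.001 with the authors' table and ran from -0.086 to 0.083 with 1 array left out, CREB3L4 from -0.004 to 0.249 and ZBTB16 from -0.052 to 0.177. In R1881 TSC22D3 ran from -0.07 to 0.084, ZBTB10 from -0.093 to 0.295 and CREB3L4 from -0.07 to 0.196. For the difference of the responses ZBTB10 ran from -0.088 to 0.301 and CREB3L4 from -0.187 to 0.1, with 0.054 under median scaling. With R1881 under the ERRγ siRNA, MBTPS1 ran from -0.162 to 0.026, with 0.039 under median scaling. The cause of these changes was not tested. No member changed direction with R1881 under any setting.

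Leaving out 1 array also ended calls of relatives with R1881. Under the control siRNA these were MAFF without R1881 replicate 1 or vehicle replicate 1 or 2 (adjusted p up to 0.162), MT2A without R1881 replicate 2 or 3 or vehicle replicate 2 or 3 (up to 0.13), MBTPS1 without R1881 replicate 2 or vehicle replicate 1 or 3 (up to 0.0873) and MBTPS2 without R1881 replicate 2 or vehicle replicate 3 (up to 0.0927). Under the ERRγ siRNA they were ATF6 without any of the 6 arrays (up to 0.0983), CIART without replicate 1 or 3 of either treatment (up to 0.122) and CEBPG without replicate 3 of either treatment (up to 0.0858), while MT2A was called without vehicle replicate 2 (adjusted p = 0.0263). With the authors' table, no filter, averaged probes or median scaling, 12 such calls were lost, counted per gene and setting.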
